A study of Mus musculus with 2 samples.

Results

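The cytochrome P450 genes of families 1 to 4 were described in RNA from the small intestine of mice on a food antigen-free diet (FAF) and of mice on conventional chow (Conv). The members were taken by name. Every probe that is not a control and whose gene name on the array begins with Cyp1, Cyp2, Cyp3 or Cyp4, followed by a subfamily letter and a number, was kept. This gave 92 probes for 64 genes, of 27614 gene names on the array. The mice were C57BL/6 animals of 6 to 8 weeks. The FAF mice ate an amino acid diet for up to 5 generations, while the Conv mice ate a standard rodent chow, per the labels. Both specific-pathogen-free mice and germ-free mice appear in the labels, which do not state the kind that gave the RNA, or whether it was a single mouse or a pool. The same 2 RNA samples, 1 per diet, were hybridised to 2 two-colour Agilent arrays with the dyes exchanged, so the arrays repeat the labelling and not the animals.

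Cytochrome P450 enzymes carry a heme group and insert an atom of oxygen from O2 into their substrates, with electrons that come mostly from the reductase Por. The families 1 to 3 oxidise drugs, plant compounds, steroids and fatty acids, and family 4 mainly oxidises the tail end of fatty acids and eicosanoids. In the small intestine these enzymes sit in the absorptive enterocytes of the villus, where they meet food compounds before the liver does. Many are switched on by receptors that sense foreign compounds or lipids, namely CAR, PXR, the aryl hydrocarbon receptor and PPAR alpha. Genes of a subfamily often lie side by side on a chromosome and resemble each other closely.

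Values below are log2 normalised intensities of a probe in each diet, given for array 1 and then array 2, and log2 ratios of FAF over Conv. The ± after a ratio gives how far each array lay from the mean of both. It covers the error of dye and hybridisation left after the dye correction within each array, but not the variation from mouse to mouse. No test between the diets was therefore possible, and no p-value is given. The number of arrays limits the precision. In its place a rule of size was used: a gene was called when the mean of its ratios reached 2-fold and each array reached 1.5-fold the same way. A probe counted as measured if both arrays put it well above background in at least 1 diet, and a gene was read from its measured probe of highest intensity.

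Of the 64 genes, 48 were measured. FAF RNA was higher by the rule for 20 of the 48 (41.7%), and lower for 0. Over all 17162 measured genes the same rule called 1.53% higher and 0.88% lower. The median ratio of the 48 genes was 0.69, beside 0.00 over all measured genes. Among the 41 members above background in both diets, the ratio was above 0 on both arrays for 33 (80.5%) and below 0 on both for 8 (19.5%). Over all 16291 genes above background in both diets these shares were 38.4% and 40.3%. The 20 called genes ran between 2.02-fold and 4.82-fold, with distances between an array and the mean of 0.01 to 0.20. For all 20 the lower FAF intensity exceeded the higher Conv intensity. The rule itself asks for 1.5-fold on each array, so this is largely set by the choice of genes. The same holds wherever called genes are described below as without overlap, and the share over all genes was not counted. Across the 48 genes the ratios of both arrays had a Pearson correlation of 0.98, as a description of points that share the same RNA and arrays. Without turning the ratios of array 2 for its exchanged dyes, the rule called 0 of these 48 genes and 0 of all 17162 measured genes. Ratios of opposite sign on the arrays cannot pass the rule, so this says nothing particular about the members.

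**Figure D1:**
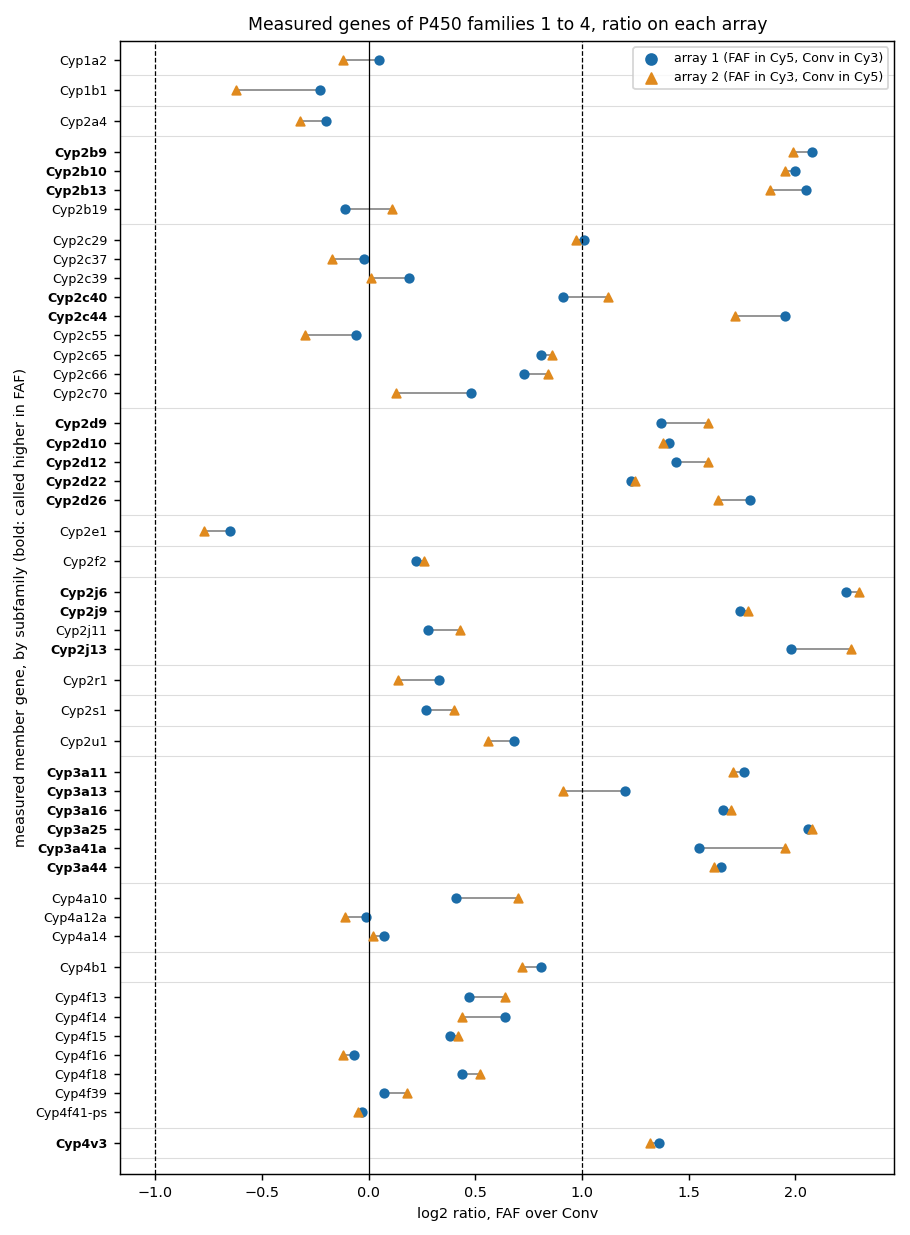
Log2 ratio of FAF over Conv (x axis) of each of the 48 measured member genes (y axis, grouped by subfamily), with a circle for array 1 and a triangle for array 2; dashed lines mark 2-fold. The Cyp2b, Cyp2d, Cyp2j and Cyp3a groups hold most of the 20 genes called higher in FAF (bold), up to 2.27 for Cyp2j6, and the only gene near the lower line is Cyp2e1 at -0.71.

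The called genes fell into 6 subfamilies. All 6 Cyp3a genes and all 5 measured Cyp2d genes were called higher, as were 3 of 4 measured Cyp2b genes, 3 of 4 Cyp2j genes, 2 of 9 Cyp2c genes and the lone Cyp4v gene. None was called in Cyp1a, Cyp1b, Cyp2a, Cyp2e, Cyp2f, Cyp2r, Cyp2s, Cyp2u, Cyp4a, Cyp4b or Cyp4f. By family, 0 of 2 measured genes were called in family 1, 13 of 28 in family 2, 6 of 6 in family 3 and 1 of 12 in family 4, with medians of -0.23, 0.91, 1.71 and 0.44.

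Markers of cell types differed in both directions. All 13 enterocyte markers were measured, with a median of 0.82, and 12 were above 0, with Anpep at -0.15 ± 0.17. Called higher were 5, among them Apoa4 at 2.71 ± 0.03 and Sis, the sucrase of the brush border, at 1.70 ± 0.07. The summed intensity of all 13 was 984552 and 1070229 in FAF RNA, against 461488 and 564366 in Conv RNA. Crypt and cycling markers had a median of -0.68 over 10 genes, with 2 called lower and sums of 17554 and 17550 in FAF RNA, against 23419 and 25323 in Conv RNA. Paneth cell markers had a median of -0.90 over 7 measured of 8 genes, with 3 called lower and sums of 319882 and 241875 in FAF RNA, against 518509 and 550481 in Conv RNA. Fat tissue markers had a median of -1.20 over 8 measured of 9, with 5 lower and 1 higher, and sums of 20428 and 22225 in FAF RNA, against 23423 and 22691 in Conv RNA. Cidec, which was called higher, and Fabp4 made up 92.7% and 92.9% of the FAF sums, and without them the sums were 1500 and 1573 in FAF RNA, against 6870 and 7200 in Conv RNA. Smooth muscle markers had a median of -0.55 over 8 genes with 0 called, goblet cell markers -0.24 over 7 with 2 lower, endothelial markers 0.34 over 7 with 0 called and macrophage markers 0.23 over 6 with 0 called. Smooth muscle sums were 61501 and 62055 in FAF RNA, against 97012 and 88555 in Conv RNA. Goblet cell sums were 405033 and 360416 in FAF RNA, against 428967 and 467409 in Conv RNA. Endothelial sums were 5784 and 5723 in FAF RNA, against 4461 and 4495 in Conv RNA, and macrophage sums 3755 and 3386 in FAF RNA, against 2698 and 2745 in Conv RNA. The part of any of these lists in the P450 ratios was not tested. In a whole tissue, fewer cells of a type and less RNA per cell cannot be told apart.

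The liver is the main P450 organ, so hepatocyte markers were also read. Of 15 such genes 9 were measured, with a median of 0.00. Their sums were 25457 and 22114 in FAF RNA, against 17237 and 15154 in Conv RNA. Apob and Cps1, which enterocytes also express, made up 94.9% to 97% of these sums, and without them the sums were 752 and 732 in FAF RNA, against 779 and 774 in Conv RNA. Alb, the albumin gene, had a ratio of -0.16 ± 0.05, and Ttr, Fgb, Fga, Serpina3k, Hpx and Tdo2 did not stand clear of background in FAF or Conv RNA. The only hepatocyte marker called was Apob at 1.16 ± 0.04, which enterocytes use for chylomicrons, and its other measured probes gave 0.99, 0.78, 0.85 and 1.09. For position along the intestine, proximal markers had a median of 0.26 over 9 measured of 11 genes with 3 called higher. Their sums were 330700 and 385496 in FAF RNA, against 110521 and 148652 in Conv RNA. Lct at 1.62 ± 0.26 and Fabp1 at 2.02 ± 0.14, both also enterocyte markers, weighed most in the FAF sums. Of the 9 ratios 8 were above 0, with Gata4 and Slc11a2 only at 0.02 and 0.09, and Cybrd1 had -0.43 ± 0.01. Ileal markers had 0.06 over 7 measured of 9 with 2 called higher, Cubn at 2.16 ± 0.27 and Muc3 at 1.68 ± 0.03. Of the 7 ratios 4 were above 0, and Slc51b and Nr1h4 both had -0.58. The ileal sums were 240053 and 250191 in FAF RNA, against 132880 and 149508 in Conv RNA, and the ileal genes Fabp6 and Fgf15 were not measured. Stomach markers had a median of 1.14 over 4 measured of 8, with Gkn2 and Tff1 called higher and sums of 1005 and 894 in FAF RNA, against 502 and 441 in Conv RNA. In Conv RNA Gkn2 had 6.43 and 5.98 and Tff1 6.48 and 6.12, near the background level. Gkn1, Tff2, Gif and Atp4a were not measured.

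The Cyp2b genes, whose Cyp2b10 is the standard target gene of CAR in mice, were among the most changed. Cyp2b10 had log2 intensities of 11.44 and 11.27 in FAF RNA, against 9.44 and 9.33 in Conv RNA, a ratio of 1.97 ± 0.03 (3.92-fold). Cyp2b9, which is mostly a female gene in mouse liver, had 13.08 and 12.95 in FAF RNA, against 11.00 and 10.96 in Conv RNA, a ratio of 2.04 ± 0.05 (4.1-fold). Cyp2b13 had 11.93 and 11.94 in FAF RNA, against 9.89 and 10.06 in Conv RNA, a ratio of 1.96 ± 0.08 (3.89-fold). In all 3 genes both FAF values stood well clear of both Conv values. Cyp2b19, a P450 of the epidermis, had 6.55 and 6.39 in FAF RNA, against 6.66 and 6.28 in Conv RNA, with overlapping diets and a ratio of 0.00 ± 0.11. Cyp2b23 was not measured.

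The probes of these genes differ in what they can tell apart, which is why they are shown. By the accessions in the array files, matched to RefSeq, Cyp2b10 alone is listed for its probe and Cyp2b9 alone for a second probe of that gene, but 4 genes (Cyp2b9, Cyp2b10, Cyp2b13 and Cyp2b23) for the Cyp2b13 probe.
Cyp2b10: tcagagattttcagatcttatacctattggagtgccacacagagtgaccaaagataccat
Cyp2b9: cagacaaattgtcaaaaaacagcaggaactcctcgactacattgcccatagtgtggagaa
Cyp2b13: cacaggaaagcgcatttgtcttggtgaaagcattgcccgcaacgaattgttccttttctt
In mouse build mm9, as the array files give it, the Cyp2b10 probe lies at chr7:26702056-26702115 and the Cyp2b9 probe at chr7:26983484-26983543. The Cyp2b13 probe is placed at chr7:26873757-26880713, an interval longer than its 60 bases. The Cyp2b9 probe shown had a ratio of 1.45 ± 0.04, at 8.83 and 8.67 in FAF RNA, against 7.42 and 7.19 in Conv RNA. The brighter Cyp2b9 probe, at 2.04, is listed for Cyp2b9 and Cyp2b10. A second Cyp2b13 probe, listed for Cyp2b13 alone, was not well above background on any array, with a ratio of 0.01 ± 0.01. The increase read from the Cyp2b13 probe therefore cannot be assigned to Cyp2b13 alone. A second Cyp2b10 probe, with no RefSeq gene listed, had a ratio of 1.83 ± 0.10.

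The Cyp2c genes hold epoxygenases and hydroxylases of arachidonic acid, several of them abundant in the gut. Cyp2c44, an epoxygenase that RefSeq now names Cyp2c23, changed most. It had 9.61 and 9.39 in FAF RNA, against 7.66 and 7.67 in Conv RNA, a ratio of 1.84 ± 0.11 (3.57-fold). Cyp2c40, which makes hydroxylated arachidonic acid, had 14.07 and 14.23 in FAF RNA, against 13.16 and 13.10 in Conv RNA. Its ratio of 1.01 ± 0.11 was the lowest that was called, and Cyp2c29, at 0.99 ± 0.02, was the highest that was not. With median centring the Cyp2c40 arrays gave 1.74 and 0.34, and it was not called. Cyp2c29, which CAR and PXR also control, had 11.74 and 11.86 in FAF RNA, against 10.73 and 10.89 in Conv RNA, so its diets were as clearly apart as those of Cyp2c40. The gut genes Cyp2c65 and Cyp2c66 had ratios of 0.84 ± 0.03 and 0.78 ± 0.05, under 2-fold on both arrays, and the Cyp2c66 probe is listed for both genes.

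Other Cyp2c genes showed ratios close to 0. Cyp2c70, which makes the muricholic bile acids of mice, had a ratio of 0.31 ± 0.18, and Cyp2c37 had -0.10 ± 0.08. Cyp2c55 had the lowest ratio of the subfamily, -0.18 ± 0.12, with 8.35 and 8.17 in FAF RNA, against 8.41 and 8.47 in Conv RNA. Cyp2c39 was above background only in FAF RNA, with a ratio of 0.10 ± 0.09 and a bound of 1.07-fold, and array 2 alone gave 0.01. Such a bound sets the FAF mean over both arrays against the probe's own Conv signal or the lowest signal well above background. The higher of these is taken. For Cyp2c39, Cyp2f2 and Cyp4f39 the bound equalled the fold of the mean ratio, so it is no minimum for them. Cyp2c38 and Cyp2c54 were not measured. The Cyp2c40 probe used is listed for Cyp2c40, Cyp2c67, Cyp2c68 and Cyp2c69, and a second probe, for Cyp2c40 and Cyp2c68, gave 1.07 ± 0.02. That second probe shares 38 of 46 overlapping bases with the Cyp2c54 probe, which stayed at background with a ratio of -0.03 ± 0.03.

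All 5 measured Cyp2d genes, relatives of the human drug-oxidising gene CYP2D6, were called higher within a narrow range. Cyp2d26 had 16.28 and 16.37 in FAF RNA, against 14.50 and 14.73 in Conv RNA, a ratio of 1.71 ± 0.08 (3.28-fold). Cyp2d12 had 12.64 and 12.87 in FAF RNA, against 11.20 and 11.27 in Conv RNA, a ratio of 1.52 ± 0.08. Cyp2d9, a steroid 16-alpha-hydroxylase in male mouse liver, had 13.40 and 13.49 in FAF RNA, against 12.03 and 11.90 in Conv RNA, a ratio of 1.48 ± 0.11. The 3 genes moved alike, with no overlap between the diets. Cyp2d10 had 13.96 and 14.04 in FAF RNA, against 12.55 and 12.66 in Conv RNA, a ratio of 1.40 ± 0.01. Cyp2d22, often called the mouse counterpart of CYP2D6, had 10.79 and 10.69 in FAF RNA, against 9.56 and 9.44 in Conv RNA, the smallest ratio of the group at 1.24 ± 0.01 (2.36-fold). Its other measured probes gave 0.80 ± 0.06 and 0.75 ± 0.02, and with the mean over its probes, 0.93, Cyp2d22 was not called. Cyp2d13 and Cyp2d34 were not measured.

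Cyp2d9 is read by a pair of probes that overlap on its transcript, shown here with the shared 27 bases in capitals.
Cyp2d9 first probe: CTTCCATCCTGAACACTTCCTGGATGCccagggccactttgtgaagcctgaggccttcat
Cyp2d9 second probe: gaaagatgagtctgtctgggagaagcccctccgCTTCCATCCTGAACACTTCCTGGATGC
They lie at chr15:82286832-82286891 and chr15:82286799-82286858 of mm9 and gave ratios of 1.48 ± 0.11 and 1.5 ± 0.14, which are therefore no independent readings. The first is listed for Cyp2d9, Cyp2d11, Cyp2d34 and Cyp2d40 and the second for Cyp2d9 and Cyp2d11. A separate Cyp2d34 probe stayed at background with a ratio of 0.03 ± 0.01. A second Cyp2d10 probe, listed for Cyp2d10 alone, was above background on only 1 array per diet, with a ratio of 0.01 ± 0.10.

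The Cyp2j genes make epoxides and hydroxylated products of arachidonic acid, and Cyp2j6 is a P450 of the small intestine. Cyp2j6 had the highest ratio of the measured members under this processing. With the scanner software's ratio Cyp2j11 (2.86) and Cyp2j13 (2.34) stood above its 2.33, and with the mean over probes Cyp2j6 and Cyp2j13 both stood at 2.12. Cyp2j6 had 12.79 and 12.71 in FAF RNA, against 10.56 and 10.41 in Conv RNA, a ratio of 2.27 ± 0.03 (4.82-fold), and its second probe gave 1.96 ± 0.03. Cyp2j13 had 10.57 and 10.80 in FAF RNA, against 8.59 and 8.54 in Conv RNA, a ratio of 2.12 ± 0.14 (4.35-fold). Cyp2j9 had 10.42 and 10.29 in FAF RNA, against 8.68 and 8.51 in Conv RNA, a ratio of 1.76 ± 0.02 (3.39-fold). Both arrays thus separated the diets by more than 3-fold for these 3 genes. Cyp2j11 was above background only in FAF RNA, at 6.57 and 6.46, against 6.29 and 6.03 in Conv RNA, a ratio of 0.36 ± 0.07, at least 1.23-fold higher by the means. Cyp2j5, a gene of kidney and liver, was not measured.

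The Cyp2j probes are shown because a called gene and an uncalled neighbour are read from overlapping sequence. Capitals in Cyp2j13 mark the 24 bases that, in frame, read as the heme-binding signature of P450 enzymes, around the cysteine that holds the iron. Capitals in Cyp2j11 mark the 2 bases that differ from Cyp2j13 over the 30 bases that both probes cover.
Cyp2j6: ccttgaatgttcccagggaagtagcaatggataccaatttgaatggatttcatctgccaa
Cyp2j13: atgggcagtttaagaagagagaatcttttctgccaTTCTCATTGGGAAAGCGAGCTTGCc
Cyp2j11: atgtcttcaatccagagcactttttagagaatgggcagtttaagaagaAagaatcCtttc
In mm9 the Cyp2j6 probe lies at chr4:96192532-96192591 and the Cyp2j11 probe at chr4:95964317-95964376, both on the minus strand, and the Cyp2j13 probe spans chr4:95712305-95723288. The Cyp2j13 probe is listed for Cyp2j12 and Cyp2j13. The other Cyp2j13 probes, both listed for Cyp2j13 alone, were not well above background on any array and gave ratios of 0.07 ± 0.06 and 0.03 ± 0.15. Which of the listed genes gave the signal cannot be told apart.

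**Figure D2:**
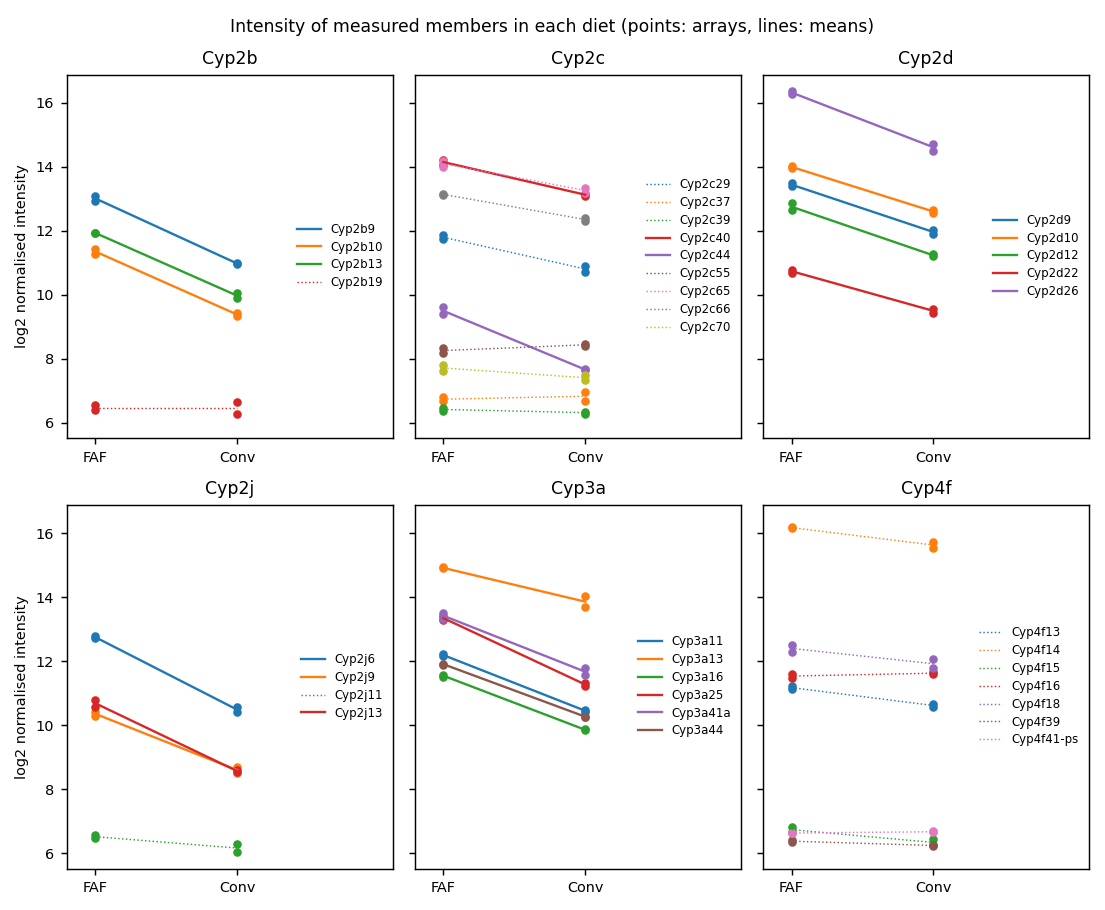
Log2 normalised intensity (y axis) of the measured members of 6 subfamilies in FAF RNA (left of each panel) and Conv RNA (right), with a point per array, a line through the means, and solid lines for genes called higher. All Cyp2d and Cyp3a genes are higher in FAF, by 1.05 to 2.07 in log2, whereas the Cyp4f lines are flatter, with ratios of -0.09 to 0.56; heights of different probes are not comparable.

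The Cyp3a genes, which include the main PXR target genes of liver and intestine, were all measured and all called. Cyp3a25 had 13.28 and 13.41 in FAF RNA, against 11.22 and 11.32 in Conv RNA, a ratio of 2.07 ± 0.01 (4.21-fold), and its second probe gave 2.01 ± 0.09. Cyp3a11, the mouse gene most often set beside human CYP3A4, had 12.17 and 12.21 in FAF RNA, against 10.41 and 10.49 in Conv RNA, a ratio of 1.74 ± 0.02 (3.33-fold). Cyp3a41a, a female-predominant gene of mouse liver, had 13.33 and 13.51 in FAF RNA, against 11.78 and 11.56 in Conv RNA, a ratio of 1.75 ± 0.20. These 3 genes showed increases of more than 3-fold without overlap. Cyp3a16, a fetal gene of mouse liver, had 11.51 and 11.58 in FAF RNA, against 9.84 and 9.87 in Conv RNA, a ratio of 1.68 ± 0.02. Cyp3a44 had 11.92 and 11.89 in FAF RNA, against 10.26 and 10.27 in Conv RNA, a ratio of 1.64 ± 0.02, and 1.13 ± 0.10 by a second, dimmer probe. Cyp3a13, the intestinal member of the subfamily, had the smallest ratio. It had 14.90 and 14.93 in FAF RNA, against 13.69 and 14.03 in Conv RNA, a ratio of 1.05 ± 0.15 (2.08-fold), and array 2 alone gave 0.91. With median centring its arrays gave 2.06 and 0.08, and it was not called.

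The Cyp3a11 probe is listed for 4 genes (Cyp3a11, Cyp3a41a, Cyp3a41b and Cyp3a44), the Cyp3a25 probe for Cyp3a25 and Cyp3a59, and the Cyp3a41a probe for Cyp3a41a and Cyp3a41b. The probes of Cyp3a13, Cyp3a16 and Cyp3a44 are listed for their own gene alone, and all 3 were called. Hybridisation between the remaining mismatched relatives was not tested.

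Because the Cyp3a genes moved together, the sequence before their starts was read from RefSeq promoters of build GRCm38.p6. The 250 bases before the start of Cyp3a16, Cyp3a41a and Cyp3a44 were alike in 93.9% to 95.9% of aligned bases, and Cyp3a11 matched them in 79.1% to 83.3%. The last 150 of these bases are shown 5′ to 3′, all from the minus strand. Capitals mark the letters CAAAGTCCA, those of an element that the enterocyte and liver factor HNF4 alpha is known to bind.
Cyp3a11: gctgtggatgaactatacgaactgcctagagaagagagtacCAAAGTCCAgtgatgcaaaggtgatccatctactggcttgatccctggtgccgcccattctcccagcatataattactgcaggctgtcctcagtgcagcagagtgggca
Cyp3a16: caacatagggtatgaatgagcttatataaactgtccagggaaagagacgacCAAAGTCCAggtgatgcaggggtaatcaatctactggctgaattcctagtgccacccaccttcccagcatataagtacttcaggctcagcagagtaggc
Cyp3a41a: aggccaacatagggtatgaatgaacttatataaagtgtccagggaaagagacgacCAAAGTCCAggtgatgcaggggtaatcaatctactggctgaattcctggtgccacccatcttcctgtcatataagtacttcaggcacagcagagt
Cyp3a44: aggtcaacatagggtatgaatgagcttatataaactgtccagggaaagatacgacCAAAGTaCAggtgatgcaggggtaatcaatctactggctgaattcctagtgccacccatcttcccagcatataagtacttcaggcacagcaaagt
The windows lie at chr5:145879855-145880004, chr5:145469724-145469873, chr5:145720137-145720286 and chr5:145805875-145806024, in the order shown. The match begins 109 bases before the start of Cyp3a11, 99 before that of Cyp3a16 and 95 before that of Cyp3a41a. Cyp3a44 holds 8 of the 9 letters at the same place, 95 bases before its start, with the differing base in lower case. Cyp3a44 and Cyp3a16 had ratios of 1.64 and 1.68, and whether these letters bear on the ratios was not tested. The promoter of Cyp3a25, which had the highest ratio of the subfamily, is not shown and does not hold these letters. None is shown for Cyp3a13, which had the lowest ratio. A match is a description of letters and not a bound site.

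The same window of 250 bases before and 50 after the start was searched on both strands for 11 motifs in the 55 promoters that RefSeq holds for 49 of the member genes. CAAAGTCCA was present in 4 of 19 promoters of called genes (Cyp2c40, Cyp3a11, Cyp3a16 and Cyp3a41a) and in 2 of 27 of measured genes that were not called (Cyp2c65 and Cyp2c70), beside 0.475% of all 32851 promoters. Close relatives share promoter sequence by descent, so these are not separate occurrences. AGGTCA, the core letters that nuclear receptors such as CAR, PXR and PPAR alpha read, was in 6 of 19 promoters of called genes and 6 of 27 of uncalled genes, beside 16.3% of all. Its variant AGTTCA was in 4 of 19 and 2 of 27, beside 14%. Direct repeats of AGGTCA with 1 or 4 free bases between them were in 0 of the 55, beside 0.0396% and 0.0152% of all. At such shares 0 of 55 could hardly be otherwise. Only exact repeats were searched, so inexact or mixed ones are not covered.

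Motifs of other factors were counted in the same windows. GCGTG, the core letters of the aryl hydrocarbon receptor element, was in 5 of 19 promoters of called genes and 5 of 27 of uncalled genes, beside 32.4% of all. TTANGTAA, read by the clock output factors Dbp, Hlf and Tef, was in 0 of 19 and 0 of 27, beside 2.32% of all. GTTAAT, part of the HNF1 motif, was in 2 of 19 and 2 of 27, beside 7.1%. AGATAA, read by Gata4 and Gata6, was in 1 of 19 and 9 of 27, beside 11.2%. TTTATNG, a CDX motif, was in 1 of 19 and 5 of 27, beside 10.9%, and TATAAA was in 8 of 19 and 9 of 27, beside 13.6%. These windows hold only the bases next to the start, and enhancers farther away were not read.

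The family 1 genes, classical targets of the aryl hydrocarbon receptor, were not called in either direction. Cyp1a1 was above background on only 1 Conv array and on no FAF array, so it was not measured. Cyp1a2 had 6.45 and 6.33 in FAF RNA, against 6.40 and 6.45 in Conv RNA, a ratio of -0.03 ± 0.08, and was above background on only 1 of the FAF arrays. Cyp1b1 had 7.59 and 7.52 in FAF RNA, against 7.82 and 8.14 in Conv RNA, a ratio of -0.43 ± 0.20. Both arrays put Cyp1b1 lower in FAF, short of the rule, with array ratios of -0.23 and -0.62. Second probes of Cyp1a2 and Cyp1b1 were not well above background.

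Small subfamilies of family 2 covered both directions. Cyp2e1, which oxidises ethanol and ketone bodies, had the lowest ratio of all measured members. It had 7.15 and 7.20 in FAF RNA, against 7.80 and 7.98 in Conv RNA, a ratio of -0.71 ± 0.06. The diets did not overlap, and the fold of 0.61 was short of the rule. The Cyp2e1 probe, at chr7:147959585-147959644 of mm9, is listed for Cyp2e1 alone and is shown as the probe of the lowest member.
Cyp2e1: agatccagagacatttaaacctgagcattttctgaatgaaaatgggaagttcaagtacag
Cyp2a4, a steroid 15-alpha-hydroxylase, had a ratio of -0.26 ± 0.06, from a probe listed for Cyp2a4 and Cyp2a5. Cyp2u1, a fatty acid hydroxylase, had 0.62 ± 0.06, Cyp2s1, an epithelial P450, 0.33 ± 0.06, and Cyp2r1, the vitamin D 25-hydroxylase, 0.23 ± 0.10. Cyp2f2, the naphthalene-activating P450 of lung, was above background only in FAF RNA, at 0.24 ± 0.02, 1.18-fold by the means. Cyp2a5, Cyp2a12, Cyp2a22, Cyp2g1 and Cyp2w1 were not measured.

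In family 4 only Cyp4v3 was called. Cyp4v3, the mouse counterpart of the human fatty acid hydroxylase CYP4V2, had 14.92 and 15.07 in FAF RNA, against 13.57 and 13.76 in Conv RNA, a ratio of 1.34 ± 0.02 (2.52-fold). With median centring in place of loess its arrays gave 2.21 and 0.49, so the call was lost although the mean was 1.35. Cyp4b1, which activates lung toxins, followed with 13.45 and 13.48 in FAF RNA, against 12.65 and 12.76 in Conv RNA, a ratio of 0.76 ± 0.04. Its diets did not overlap, but it stayed under 2-fold.

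The Cyp4a genes are the standard PPAR alpha targets among the P450s. Cyp4a10 had 12.55 and 12.72 in FAF RNA, against 12.14 and 12.02 in Conv RNA, a ratio of 0.56 ± 0.14 by a probe with no RefSeq gene listed, and its other measured probes gave 0.72 ± 0.10 and 0.60 ± 0.12. These probes were all positive and all under the rule. Cyp4a14 had 0.04 ± 0.03 and Cyp4a12a, a maker of 20-HETE, -0.06 ± 0.05, both near the background level. Cyp4a12b, Cyp4a29-ps, Cyp4a31 and Cyp4x1 were not measured.

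The 7 Cyp4f genes, which inactivate leukotrienes and oxidise long fatty acids, were all measured and none was called. Cyp4f13 had the highest ratio, 0.56 ± 0.09, and Cyp4f16 the lowest, -0.09 ± 0.02. Cyp4f14, a leukotriene B4 hydroxylase, had 16.20 and 16.15 in FAF RNA, against 15.55 and 15.71 in Conv RNA, a ratio of 0.54 ± 0.10. Cyp4f18, the leukotriene hydroxylase of neutrophils, had 0.48 ± 0.04. These moderate ratios were positive on both arrays. Cyp4f15 had 0.40 ± 0.02, and was above background on only 1 of the Conv arrays, and the pseudogene Cyp4f41-ps had -0.04 ± 0.01. Cyp4f39 was above background only in FAF RNA, at 0.13 ± 0.06, 1.09-fold by the means, and array 1 alone gave 0.07. A second Cyp4f16 probe, listed also for Cyp4f37, gave 0.08 ± 0.05.

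The clusters in which the genes lie were set by chromosome and subfamily together, so they largely repeat the subfamilies by construction. The Cyp2d cluster, over 419 kb of chromosome 15 in mm9, held 5 measured genes with ratios of 1.24 to 1.71. The 6 Cyp3a genes of chromosome 5 ran between 1.05 and 2.07. They span 8466 kb, because Cyp3a13, the gene at 1.05, lies far from the others, which ran between 1.64 and 2.07. In the chromosome 7 cluster of Cyp2a, Cyp2b, Cyp2f, Cyp2g and Cyp2s, 3 of 7 measured genes were called and ratios ran between -0.26 and 2.04. Chromosome 4 holds both a Cyp2j cluster, with 3 of 4 measured genes called, and a Cyp4a, Cyp4b and Cyp4x cluster, with 0 of 4. The Cyp4f cluster of chromosome 17 had 0 of 6 called. Neighbouring genes of a cluster are also those most alike in sequence, so position and shared signal cannot be told apart here.

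Different probes of a gene gave a further check. Of 23 genes with several probes, 10 had all probes measured, 10 had both measured and unmeasured probes, and 3 had none. Of the genes with more than 1 measured probe, the smaller reading was under 2-fold for Cyp2d22 alone among the called ones. Of the 20 called genes, 12 are read by probes listed for 1 RefSeq gene and 8 by probes listed for several. Among the 35 measured genes read by a single-gene probe, 12 were called (34.3%).

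**Figure D3:**
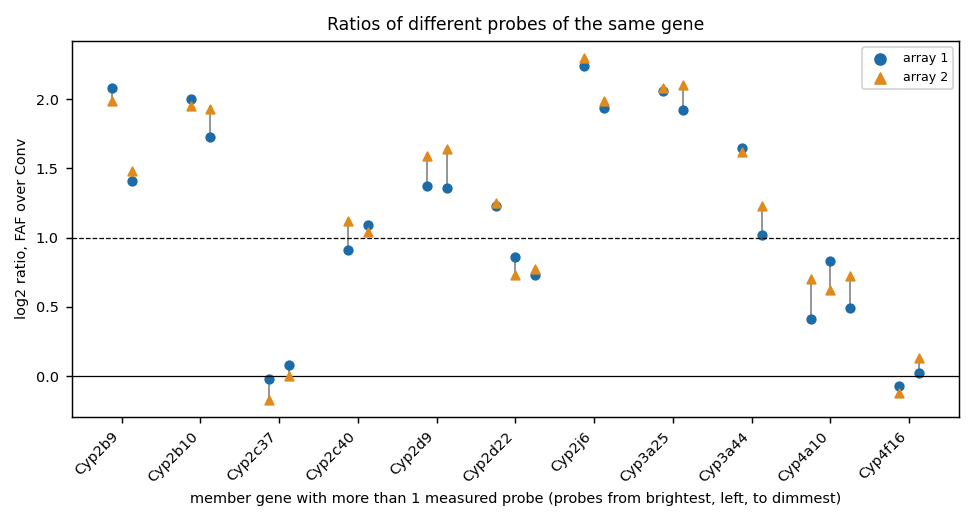
Log2 ratio of FAF over Conv (y axis) for each measured probe of the 11 member genes with more than 1 measured probe (x axis), with probes of a gene side by side from brightest to dimmest, circles for array 1 and triangles for array 2. Probes of Cyp2b9 read 2.04 and 1.45 and those of Cyp3a44 1.64 and 1.13, with the dimmer probe lower, while the Cyp3a25 probes read 2.07 and 2.01; the dashed line marks 2-fold.

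Brightness moved with the calls. Among the 24 brighter members 14 were called, with a median of 1.20, and among the 24 dimmer members 6, with a median of 0.18. Over all measured genes, split at the same brightness, 3.05% of the brighter and 1.04% of the dimmer were called higher. An offset added to each intensity pulls the ratios of dim probes toward 0 by construction, and lowering it to 10 moved the dim Cyp2j11 to 0.76 in place of 0.36. The ratios of the scanner software, which differ in background and dye correction as well, lay farther apart, and which step accounts for it was not tested. By the software Cyp2j11 stood at 2.86, Cyp4f15 at 1.67 in place of 0.40 and Cyp2f2 at 1.22 in place of 0.24. Cyp2e1 stood at -1.22 in place of -0.71, and the unmeasured Cyp1a1 at -2.65 in place of -0.35. For bright members such as Cyp2d26, at 1.73 in place of 1.71, the readings hardly differed.

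**Figure D4:**
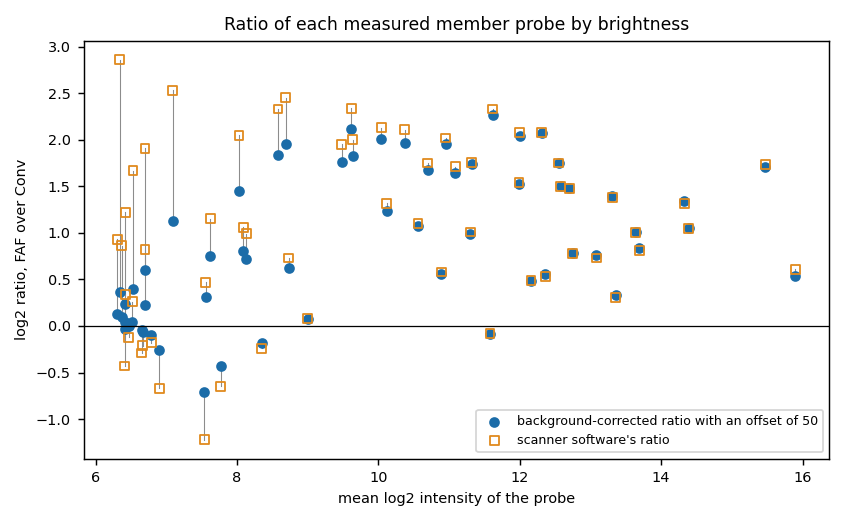
Log2 ratio of FAF over Conv (y axis) of the 61 measured member probes against their mean log2 intensity (x axis), by the ratio with an offset of 50 (filled circles) and by the scanner software (open squares), joined per probe. Circles and squares coincide for bright probes and part for dim ones, most for Cyp2j11 with 0.36 and 2.86.

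The genes that serve P450 enzymes were set beside them. Of 9 redox partners all were measured and 1 was called, Por, the reductase that feeds electrons to every microsomal P450. It had 13.72 and 13.79 in FAF RNA, against 12.67 and 12.71 in Conv RNA, a ratio of 1.06 ± 0.01 (2.09-fold). The list had a median of 0.56, with 8 of 9 above 0. Of 14 genes of heme synthesis and breakdown 1 was called, the heme exporter Flvcr1 at 1.73 ± 0.07, and the median was 0.08. Alas1, the rate-limiting enzyme of heme synthesis in most tissues, had a ratio of 0.06 ± 0.00.

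Among 33 receptors and transcription factors that control P450 genes, 4 were called higher and 0 lower, with a median of 0.19. These were Hlf at 2.07 ± 0.06, Dbp at 2.0 ± 0.02 and Tef at 1.63 ± 0.02, clock-driven factors that control drug-metabolism genes in mouse liver, and Ppara, the fatty acid receptor, at 1.16 ± 0.10. The other measured probes of Tef gave 0.75, 0.28 and 0.50, and the mean over its probes, 0.79, was under the rule. Nr1i3, which encodes CAR, had 0.86 ± 0.01 and Nr1i2, which encodes PXR, 0.65 ± 0.11, both under the rule. Ahr had 0.45 ± 0.01 and Hnf4a -0.12 ± 0.04. The sources used here do not give the hour at which tissue was taken.

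Targets of these receptors outside the P450 families were also read. Of 15 measured CAR and PXR targets 8 were called higher and 0 lower, with a median of 1.06. They included Aldh1a1, a retinal dehydrogenase, at 1.90 ± 0.16, the drug efflux pump Abcb1a at 1.80 ± 0.02, and the glutathione transferases Gsta1 and Gsta2 at 1.72 ± 0.09 and 1.61 ± 0.10. Por counts in this list too. Abcc3, an efflux pump of the same list, had -0.77 ± 0.07 by its brightest probe and -0.15 by another. Of 20 measured PPAR alpha targets 5 were called higher, with a median of 0.56, led by Pdk4 at 2.08 ± 0.01, Fabp1 at 2.02 ± 0.14, Cd36 at 1.78 ± 0.11 and Creb3l3 at 1.34 ± 0.08. Fabp1 is also an enterocyte marker. Of 7 measured aryl hydrocarbon receptor targets 1 was called, Gsta1, which the CAR and PXR list shares, and the median was 0.32. All these lists overlap in part and were read from the same RNA.

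Enzymes that act on P450 products and related lipids had a median of 0.29 over 12 measured genes, with 3 called higher. These were Ephx2, the soluble epoxide hydrolase that opens arachidonic acid epoxides, at 1.80 ± 0.05, the leukotriene C4 synthase gene Ltc4s at 1.48 ± 0.12 and Hpgd, which inactivates prostaglandins, at 1.08 ± 0.02. Of the P450 genes outside families 1 to 4, 12 of 21 were measured, with a median of -0.11. The only one called was Cyp27a1, the sterol 27-hydroxylase, at 1.26 ± 0.04. Cyp39a1, a bile acid synthesis enzyme, had the lowest ratio, -0.39 ± 0.04.

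**Figure D5:**
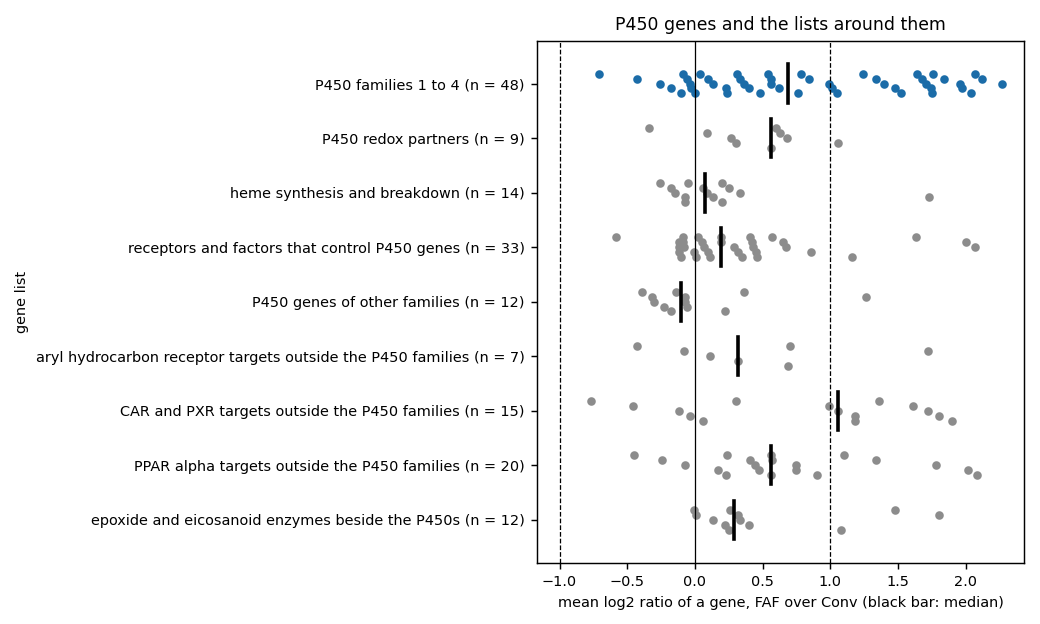
Mean log2 ratio of FAF over Conv (x axis) of each measured gene of families 1 to 4 (top row) and of the lists around them (y axis), with a black bar at each median and dashed lines at 2-fold. The medians are 0.69 for the 48 P450 genes, 1.06 for the CAR and PXR targets and 0.08 for the heme genes; some genes stand in more than 1 list.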

How the data were processed

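Per the file headers, Agilent Feature Extraction 11.5.1.1 made the deposited scanner files, which give each spot's mean intensity and local background per dye on a linear scale. A deposited log10 ratio (Cy5 over Cy3), corrected by that software for background and dye, stands beside them and is repeated in the deposited value table. From the intensities, ratios were computed with limma 3.58.1 in R 4.3.3: normexp background correction with an offset of 50, loess within each array with control spots at weight 0, ratios set as FAF over Conv from the labelled dyes, and the mean of both arrays. The intensities of each diet were also scaled between arrays with the Aquantile method. Outlier spots were left out (0.267% and 0.219% of spots), no spot was saturated, and spots of a probe were averaged. Of 41174 probes 25440 were measured. RefSeq names of GRCm38.p6 were found for 27753 probes by accession, and 13421 keep the file's name. Probe positions and listed genes come from the array files (mm9) and RefSeq, and the annotation of mm9 was not used here. The arrays share the same RNA codes in the labels and count as 1 sample per diet. The steps were tested on simulated data. Named with values were called members, the highest and lowest of each subfamily, up to 4 called genes of each other list, and some further genes chosen after their values were seen. The members and lists were chosen with earlier results of these data known, and the promoter motifs and the probes and promoters shown were chosen after the values were seen. Alternatives were other background corrections and offsets, median centring, the software's ratio, stricter and looser filters on dim members, the mean over probes, other fold limits, each array alone and single-gene probes only.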

Additional observations from a re-analysis of the deposited data

How the results depend on the processing

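The count of members called higher was 20 and stayed between 17 and 23 under other background corrections, scalings, filters and ways to combine probes. No called member changed sign under any of these alternatives. The count was 4 with a 4-fold limit (Cyp2b9, Cyp2j6, Cyp2j13 and Cyp3a25), beside 0.181% of all genes. Of these 4 only Cyp2j6 was read by a probe listed for 1 gene. With a 1.5-fold limit the count was 25, beside 4.52%. It was 13 of 37, beside 1.49%, when only probes listed for 1 gene were used, an alternative chosen after seeing the data. Median centring gave 17, beside 1.07%, without Cyp2c40, Cyp3a13 and Cyp4v3. With it the arrays also lay farther apart for genes that kept their call, such as Cyp2d26 at 2.68 and 0.75 and Cyp2b9 at 2.86 and 1.31. The scanner software's ratio, and the deposited value table that repeats it, gave 23, beside 2.84% of all genes, without Cyp2c40 and with Cyp2c29, Cyp2f2, Cyp2j11 and Cyp4f15. The members called lower were 0, and 1 (Cyp2e1) with the software's ratio, the value table or a 1.5-fold limit, where 2.04%, 2.04% and 3.59% of all genes were called lower, so that 1 of 48 is near the background share. The median ratio of 0.69 was 0.71 without background correction, 0.76 with an offset of 10, 0.73 with median centring, 0.97 with the software's ratio and with the value table, 0.99 for the 41 members above background in both diets, 0.32 for all 64 without a filter and 0.54 with single-gene probes. Each array alone gave 19 to 20 called higher, 0 lower and a median of 0.71. Without array 1 Cyp3a13 was lost, and without array 2 Cyp2c40 was lost and Cyp2c29 gained. The cause of these shifts was not tested, except that the limits and filters change the genes counted. Signal near background limits the ratios of dim members. No paired analysis was possible because the arrays form 1 group of the same RNA pair.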
